A study of Rattus norvegicus with 20 samples.

Results

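The collagen genes of the rat nucleus accumbens were followed through 4 drinking treatments. Members were all rows of the deposited count table whose symbol is a collagen chain (Col, a number, a, a number) and that held 10 or more counts in at least 4 of the 20 libraries. Of 17296 symbols in the table, 27 were collagen chains and 25 of these met the rule. They were grouped as 6 vascular chains (Col4a1, Col4a3, Col4a4, Col8a1, Col15a1, Col18a1), 9 fibrillar chains (Col1a1, Col2a1, Col3a1, Col5a1, Col5a2, Col5a3, Col11a1, Col11a2, Col27a1), 3 transmembrane chains, the types described in neurons (Col13a1, Col17a1, Col23a1), and 7 others (Col6a2, Col6a4, Col7a1, Col9a1, Col9a2, Col14a1, Col16a1). The members just inside the threshold were Col6a4, with 10 or more counts in 8 libraries, and Col8a1, with that many in 12. Just outside it were Col26a1, which had 0 to 19 counts and reached 10 in 3 libraries, and Col1a2, which is listed at 0 in all 20 libraries although its partner chain Col1a1 had 177 to 497 counts. Col4a2, Col4a5, Col4a6, Col8a2, Col19a1, Col24a1 and Col25a1 were not analysed here.

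Collagens are secreted or membrane-bound proteins in which chains wind into a rope-like helix. Fibrillar types build the fibres of skin, bone, cartilage and vessel walls, type IV forms the sheet-like network of basement membranes, and transmembrane types sit in the cell membrane with the collagen helix outside. In adult brain, collagen is known mainly from the basement membranes of blood vessels and from the meninges, the fibrous coverings of the brain, and some types are also made by neurons.

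RNA came from male Sprague-Dawley rats of wild type, aged 7 to 9 weeks, all of which self-administered cocaine. H2O rats (n = 5) drank water, Abx rats (n = 4) antibiotics, SCFA rats (n = 6) short-chain fatty acids and Abx_SCFA rats (n = 5) both. Antibiotics deplete gut bacteria, and short-chain fatty acids are products of those bacteria, so that the design asks whether the bacteria and their products alter accumbens RNA. Rats without cocaine were not analysed here. Rats shared cages in pairs that the labels do not identify, and p-values treat each rat as separate.

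Libraries held 17525358 to 25731636 counts, and 3 counts corresponded to 0.115 to 0.171 CPM, the unit used here, which is a count divided by the TMM-adjusted library size and put on a common scale. Medium spiny neuron genes marked the tissue in every library, with the dopamine receptor gene Drd1 at 171 to 511 CPM. Libraries differed in genes of cortical excitatory neurons, a cell type the nucleus accumbens itself hardly holds. The vesicular glutamate transporter gene Slc17a7 ranged over 3.09 to 252 CPM among the H2O libraries, over 43.7 to 506 with Abx, over 74.0 to 1059 with SCFA and over 132 to 339 with Abx_SCFA. The summed CPM of the cortical list, of which 11 of 12 genes were tested, ranged over 112 to 569 for H2O, 209.1 to 1015 for Abx, 231 to 2149 for SCFA and 333 to 742 for Abx_SCFA, and 0 of its genes were called in any contrast (edgeR). SCFA replicates 2 and 5 had the highest mean log2 CPM of that list, the cortical score. Rat numbers are of the 4-hundred series in each group given fatty acids and of the 2-hundred or 3-hundred series in the rest, so that fatty acids and number series cannot be told apart. In such tissue RNA, fewer cells of a type and less RNA per cell cannot be told apart either.

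No collagen gene differed between any of the groups at an adjusted p below 0.05. In edgeR's quasi-likelihood test, fitted over 12846 genes with Benjamini-Hochberg adjustment, 0 of 25 members were called in each of 6 contrasts, where the share of all genes called was 0% as well. At an unadjusted p below 0.05, 0 of 25 members passed in Abx against H2O (background 8.79%), 1 of 25 in SCFA against H2O (13.8%), 0 in Abx_SCFA against H2O (5.56%), 0 in Abx_SCFA against Abx (3.19%), 0 in Abx_SCFA against SCFA (6.78%) and 0 in the interaction (7.85%), which asks whether the antibiotic difference itself differs between rats with and without fatty acids. None of these shares is above its background. That changed for Abx with the cortical score as a term in the edgeR model, where 6 of 25 members, 24% against 8.49% of all genes, were at an unadjusted p below 0.05, all higher (background 4.41% higher). They were Col11a1 (0.89 ± 0.33, log2 fold change ± SE), Col7a1 (0.73 ± 0.32), Col27a1 (0.66 ± 0.28), Col11a2 (0.60 ± 0.27), Col18a1 (0.58 ± 0.26) and Col5a2 (0.50 ± 0.22), named after their values were seen, and 0 were called (smallest adjusted p 0.545). Col11a1, Col7a1, Col27a1 and Col5a2 each varied with Col11a2 across libraries, as described below. These members are therefore not separate results, and the difference in share was not tested. With that term, 2 of 25 members passed in the interaction (8%, background 3.67%), Col27a1 and Col9a2, both negative, and 0 in the other 4 contrasts. Without the term, split by direction, the background was 3.26% higher and 5.53% lower in Abx, 8.2% and 5.58% in SCFA, 2.09% and 3.46% in Abx_SCFA, 1.85% and 1.34% for Abx_SCFA against Abx, 2.72% and 4.06% for Abx_SCFA against SCFA, and 2.83% and 5.01% for the interaction. DESeq2 and limma-voom also called 0 members in each contrast. At an unadjusted p below 0.05, limma-voom had 1, 2 and 1 of 25 members in Abx against H2O, SCFA against H2O and the interaction. Over all 12846 genes it had 1063, 1589 and 876 there. For no member did 2 groups fail to overlap in CPM, against 2.46% of all genes for Abx and H2O, 0.537% for SCFA and H2O, 1.42% for Abx_SCFA and H2O, 1.2% for Abx_SCFA and Abx, and 0.56% for Abx_SCFA and SCFA.

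The members' fitted differences were of mixed sign. Against H2O, 16 of 25 members had a positive log2 fold change in Abx (median 0.090), 18 in SCFA (0.082) and 15 in Abx_SCFA (0.086), and the median over all genes tested lay between -0.012 and 0.0069 in all 6 contrasts. These 3 comparisons share the H2O libraries. By type, the medians in Abx were 0.046 for the vascular, 0.23 for the fibrillar, 0.11 for the transmembrane and -0.051 for the other chains. In SCFA they were 0.12, 0.049, 0.10 and 0.066, and in Abx_SCFA 0.11, 0.14, 0.21 and -0.076, in the same order. With Abx as the reference, 10 of 25 members were higher in Abx_SCFA, with medians of 0.049 for the vascular, -0.26 for the fibrillar, 0.099 for the transmembrane and -0.068 for the other chains. With SCFA as the reference, 10 of 25 were higher, and the fibrillar median was -0.054. In the interaction 9 of 25 were positive, and the fibrillar median was -0.31.

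**Figure D1:**
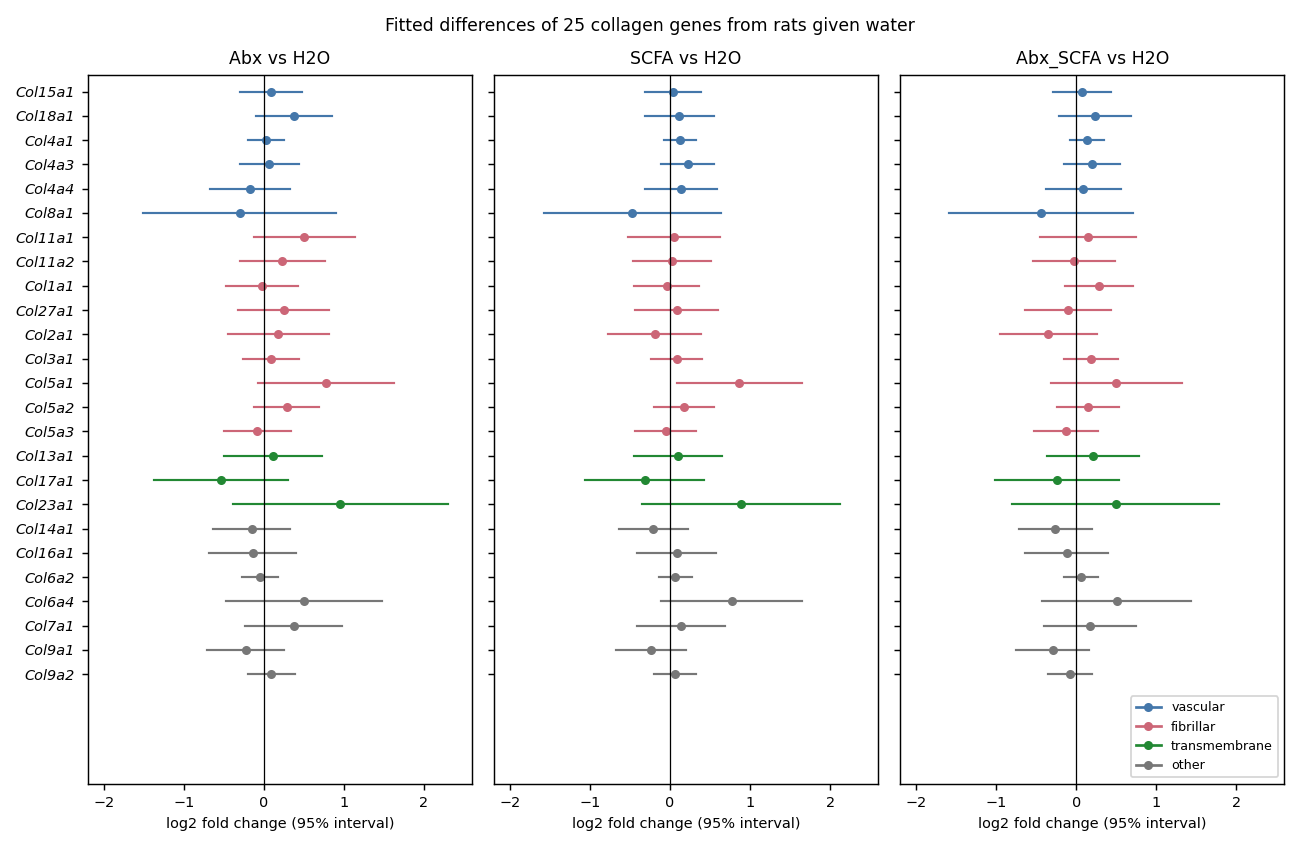
Log2 fold change of each of the 25 collagen genes against H2O (points) with its 95% interval from the edgeR fit (lines), coloured by type, in Abx, SCFA and Abx_SCFA. Every interval includes 0 except that of Col5a1 in SCFA, and the widest belong to Col23a1 and to Col8a1, which has few counts.

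Among vascular chains, Col4a1, the main chain of the type IV network under endothelial cells and around pericytes, was the steadiest. Its CPM was 63.5, 65.2, 72.1, 68.7 and 77.3 in the H2O libraries, 73.9, 55.1, 64.6 and 88.2 in Abx, from 66.6 over a median of 76.4 to 85.2 in SCFA, and 82.7, 76.4, 78.3, 65.3 and 78.2 in Abx_SCFA. Abx held both the lowest and the highest library, 1.60-fold apart (1134 to 2225 counts over all libraries), and all groups overlapped. Against H2O, the log2 fold change was 0.024 in Abx (95% interval -0.20 to 0.25). For SCFA it was 0.13 (-0.074 to 0.33), and for Abx_SCFA 0.14 (-0.075 to 0.35). Between Abx_SCFA and Abx it was 0.11 (-0.11 to 0.33). In that comparison all 14 endothelial and all 12 mural marker genes tested had a positive log2 fold change, with 0 called (edgeR). At an unadjusted p below 0.05 were 9 and 5 of them, against 1.85% of all genes higher. All 12 fibroblast and meninges, all 10 myelin and all 8 microglia genes tested were positive too, with 1, 0 and 0 at that level. Of 11 cortical and 11 interneuron genes tested, 10 and 7 were negative. The summed CPM of the endothelial list reached 789 to 940 in Abx and 990 to 1192 in Abx_SCFA (H2O 928 to 1011, SCFA 857 to 1103). The part of these lists in the Col4a1 values was not tested.

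Type IV genes lie in head-to-head pairs that start from a shared stretch of DNA, which is shown for the pairs that include a measured vascular member. Both sequences are read from the RefSeq promoter table of the GRCr8 assembly, + strand, while the authors' counts were made on Rnor_6.0. The first is the whole 76 bases between the starts of Col4a1 and Col4a2, at chr16:84885521-84885596, and the second is the 88 bases that the promoter windows of Col4a3 and Col4a4 share, at chr9:91323740-91323827. Capitals mark a match to the GC box GGGCGG on either strand, overlapping matches included.
Col4a1/Col4a2: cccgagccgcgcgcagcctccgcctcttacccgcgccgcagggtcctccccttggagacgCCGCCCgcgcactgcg
Col4a3/Col4a4: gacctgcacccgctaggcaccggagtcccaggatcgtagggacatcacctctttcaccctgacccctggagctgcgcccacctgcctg

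Col4a3 and Col4a4, whose chains join in the specialised type IV network known from the kidney filter, were not related across libraries past the threshold. Col4a3 was at 7.37, 7.75, 7.99, 7.35 and 9.64 CPM in the H2O libraries, 9.63, 6.20, 8.49 and 9.27 in Abx, 7.27, 8.75 and 12.4 (lowest, median and highest) in SCFA, and 10.8, 10.1, 9.37, 5.92 and 9.83 in Abx_SCFA. Abx_SCFA replicate 4 was the lowest library and lay inside no other group's range. Col4a4 ranged over 0.798 to 2.17 CPM (14 to 47 counts). Across the 20 libraries, Pearson's r between these partners was 0.25 (Spearman's rho 0.29, permutation p 0.280 and 0.205, adjusted p 0.512 and 0.426 over 300 pairs), and 0.40 without the 2 libraries farthest from the median of Col4a3.

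Col18a1, whose chain ends in the fragment endostatin and lies at vessel and neuronal basement membranes, was more variable than Col4a1. In H2O it was at 59.0, 38.4, 38.1, 40.1 and 51.4 CPM, in Abx at 49.8, 36.1, 87.9 and 62.4, in SCFA from 33.8 over a median of 46.5 to 67.1, and in Abx_SCFA at 60.9, 50.3, 55.1, 46.7 and 54.1. A single Abx library, replicate 3, stood above all others. The Abx log2 fold change of 0.38 ± 0.23 (SE, edgeR adjusted p 0.642) was -0.17 within the 2-hundred series (2 rats against 2) and 0.79 within the 3-hundred series (2 against 3), as differences of mean log2 CPM. Col15a1, a close relative of Col18a1, ranged over 2.47 to 5.03 CPM, and Col8a1, a network collagen of vessel walls, over 0 to 0.684 CPM with at most 16 counts and a 95% interval of -1.51 to 0.90 for its log2 fold change in Abx against H2O.

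Fibrillar chains included the most deeply counted member, with 4468 to 12152 counts a library. This member, Col11a2, a chain of type XI collagen, known from the core of cartilage fibrils, was at 516, 238, 426, 300.3 and 393 CPM in the H2O libraries, 447, 431, 539 and 345 in Abx, from 288 over a median of 352 to 582 in SCFA, and 418, 533, 318, 219 and 349 in Abx_SCFA. High and low libraries occurred in every group, and no group stood apart. Group means were 375 ± 109 (SD, n = 5) in H2O, 440 ± 79.7 (n = 4) in Abx, 381 ± 114 (n = 6) in SCFA and 367 ± 117 (n = 5) in Abx_SCFA. CPM is not corrected for transcript length, so that levels were not compared between genes.

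Col27a1, a fibrillar chain of cartilage, was high and low in much the same libraries as Col11a2. It was at 93.7, 38.1, 72.4, 54.0 and 60.6 CPM in the H2O libraries, 72.6, 85.4, 82.4 and 63.0 in Abx, from 48.1 over a median of 64.8 to 101 in SCFA, and 64.2, 95, 51.5, 31.9 and 55.3 in Abx_SCFA. SCFA replicate 1 was the highest and Abx_SCFA replicate 4 the lowest for both genes. The 120 bases before the start of each are shown because these genes had the closest relation among all members (r 0.96), again from RefSeq, GRCr8, with the GC box in capitals. That of Col11a2 is at chr20:4817649-4817768 on the - strand and that of Col27a1 at chr5:81662788-81662907 on the + strand.
Col11a2: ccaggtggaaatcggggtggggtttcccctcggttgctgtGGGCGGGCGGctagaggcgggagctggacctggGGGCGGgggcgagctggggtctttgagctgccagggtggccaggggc
Col27a1: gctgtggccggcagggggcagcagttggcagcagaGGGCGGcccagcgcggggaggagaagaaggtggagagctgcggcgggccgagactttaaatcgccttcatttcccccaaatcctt

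Among the type V chains, which start and regulate fibrils of type I collagen, Col5a1 and Col5a3 did not vary alike. Col5a3 was at 111, 65.1, 89.6, 88.0 and 94.0 CPM in the H2O libraries, 88.5, 91.9, 81.2 and 77.0 in Abx, from 52.8 over a median of 80.7 to 128 in SCFA, and 94.6, 90.9, 84.8, 59.5 and 79.6 in Abx_SCFA. SCFA held its lowest and its highest library. Col5a2 ranged over 36.3 to 80.8 CPM and Col11a1, the partner of Col11a2, over 29.0 to 96.1, with a log2 fold change of 0.51 ± 0.30 (SE) in Abx against H2O (edgeR adjusted p 0.635). Between Col5a1 and Col5a3, r across libraries was -0.14 (rho -0.13, adjusted permutation p 0.759 and 0.776, r -0.089 without the 2 libraries farthest from the median of Col5a1).

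Col5a1 was the member with the smallest p in Abx and in SCFA against H2O. CPM was 6.59, 3.47, 5.29, 5.50 and 15.7 in H2O, 19.2, 7.43, 8.89 and 14.6 in Abx, from 7.87 over a median of 12 to 25 in SCFA, and 11.9, 13.7, 8.31, 6.12 and 11.9 in Abx_SCFA. H2O replicate 5 was high, and the other H2O libraries lay under all Abx and SCFA libraries. Group means were 7.32 ± 4.84 (SD, n = 5) in H2O, 12.5 ± 5.41 (n = 4) in Abx, 13.4 ± 6.24 (n = 6) in SCFA and 10.4 ± 3.09 (n = 5) in Abx_SCFA. The log2 fold change against H2O was 0.78 ± 0.41 (SE) in Abx (unadjusted p 0.0721, edgeR adjusted p 0.592) and 0.87 ± 0.38 in SCFA (0.0325, adjusted 0.315), so that neither was called.

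The Col5a1 values moved with the cortical excitatory neuron genes, which were also high in H2O replicate 5. With the cortical score as a term in the edgeR model, its log2 fold change was 0.004 in Abx and -0.064 in SCFA, and without SCFA replicates 2 and 5 the latter was 0.47. Without H2O replicate 5 it was 1.36 in SCFA (edgeR adjusted p 0.0705) and 1.28 in Abx (0.363). In Abx it was 0.50 without Abx replicate 1. The interaction for Col5a1 was -1.14 ± 0.55 (unadjusted p 0.0510, edgeR adjusted p 0.626), -0.75 without SCFA replicates 2 and 5, and -0.074 with the cortical score in the model.

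The 120 bases before the start of Col5a1 are at chr3:31606760-31606879 and those of Col23a1, the member it followed most closely, at chr10:36050207-36050326, both + strand in RefSeq, GRCr8. They are shown side by side as the members most closely related to the cortical score. The stretch of Col23a1 holds a GC box (in capitals) and that of Col5a1 none, while over the 250 bases before the start Col23a1 has 2 and Col5a1 has 1.
Col5a1: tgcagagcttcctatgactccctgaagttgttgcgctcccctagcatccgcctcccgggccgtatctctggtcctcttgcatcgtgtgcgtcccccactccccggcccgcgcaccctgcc
Col23a1: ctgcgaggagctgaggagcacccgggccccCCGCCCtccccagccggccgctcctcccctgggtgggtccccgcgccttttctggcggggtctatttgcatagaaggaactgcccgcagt

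Col1a1 and Col3a1, the interstitial collagens of fibroblasts, vessel walls and meninges, had medians of 14.3 (Col3a1) and 13.7 CPM (Col1a1) over all libraries. Col1a1 was at 12.3, 12.2, 17.6, 13.3 and 14.0 CPM in the H2O libraries, 13.5, 8.38, 13.9 and 18.9 in Abx, from 9.77 over a median of 12.7 to 19.2 in SCFA, and 23.9, 13.3, 16.2, 14.9 and 16.4 in Abx_SCFA. Abx_SCFA replicate 1 was the highest library for both genes. Col3a1, described although it was picked after its values were seen, was at 15.3, 11.8, 12, 13 and 16.5 in H2O, 13.7, 9.32, 16.3 and 19.2 in Abx, from 11.5 over a median of 14.2 to 17.0 in SCFA, and 20.2, 14.5, 14.2, 14.0 and 15.2 in Abx_SCFA. Col1a1 had the smallest p among members with a positive difference in 3 comparisons, none called: 0.29 ± 0.20 (SE) for Abx_SCFA against H2O, 0.31 ± 0.22 against Abx and 0.33 ± 0.19 against SCFA (edgeR adjusted p 0.824, 0.999 and 0.737). Without Abx_SCFA replicate 1 these were 0.13, 0.15 and 0.17, and against Abx the value was 0.13 without Abx replicate 2 and 0.50 without Abx replicate 4. Its interaction was 0.35 ± 0.29 (edgeR adjusted p 0.739), 0.17 without Abx replicate 2, 0.20 without Abx_SCFA replicate 1 and 0.54 without Abx replicate 4. Reads of Col1a1 may include those of Sgca, which overlaps it in GRCr8, since the strand setting of the counts is not given in the sources used here.

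Col2a1, the collagen of cartilage, had the smallest p among members lower in Abx_SCFA than in Abx. It was at 5.49, 2.11, 4.46, 5.41 and 4.59 CPM in the H2O libraries, 3.83, 4.35, 6.78 and 5.15 in Abx, from 2.18 over a median of 3.5 to 6.8 in SCFA, and 4.38, 4.69, 2.39, 2.30 and 3.60 in Abx_SCFA. The Abx and Abx_SCFA libraries overlapped between 3.83 and 4.69 CPM. The log2 fold change of -0.53 ± 0.31 (SE) had an unadjusted p of 0.0960 and an edgeR adjusted p of 0.999.

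Transmembrane chains held the member with the widest range. Col23a1, a membrane collagen that can be shed from the cell surface, was at 1.36, 1.91, 1.82, 1.31 and 13.3 CPM in the H2O libraries, 15.9, 2.03, 6.04 and 6.74 in Abx, from 3.78 over a median of 6.72 to 11.4 in SCFA, and 3.03, 6.72, 4.17, 6.70 and 7.34 in Abx_SCFA. All H2O libraries but replicate 5 lay below every library of the other groups. From lowest to highest, the libraries differed 12.1-fold, more than for any other member with counts in all libraries. Its log2 fold change against H2O was 0.96 ± 0.64 (SE) in Abx, 0.89 ± 0.59 in SCFA and 0.49 ± 0.62 in Abx_SCFA, with edgeR adjusted p of 0.675, 0.536 and 0.898. Within the 2-hundred and 3-hundred series, the Abx libraries were 1.77 and 0.97 higher in mean log2 CPM than the H2O libraries. The cortical list moved with these values. With the cortical score as a term in the edgeR model, the Col23a1 log2 fold change was -0.33 ± 0.37 (SE) in Abx, -0.56 ± 0.34 in SCFA and -0.51 ± 0.34 in Abx_SCFA. The edgeR adjusted p were 0.802, 0.984 and 0.747.

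Col13a1, a membrane collagen of the neuromuscular junction, was at 3.40, 1.71, 1.93, 1.26 and 1.47 CPM in the H2O libraries, 2.69, 1.75, 1.77 and 2.18 in Abx, from 1.27 over a median of 2.00 to 3.02 in SCFA, and 2.6, 1.33, 2.77, 1.76 and 2.75 in Abx_SCFA. H2O replicate 1 was the highest and the groups covered one another. Col17a1, the membrane collagen that anchors skin cells to their basement membrane, was at 1.57, 0.352, 1.87, 1.40 and 1.23 CPM in the H2O libraries, 0.711, 0.899, 0.969 and 0.951 in Abx, from 0.554 over a median of 0.899 to 1.58 in SCFA, and 1.25, 1.97, 0.724, 0.832 and 0.688 in Abx_SCFA. Except for H2O replicate 2, with 7 counts, all H2O libraries lay above all Abx libraries. The Col17a1 log2 fold change in Abx was -0.54 ± 0.40 (SE, unadjusted p 0.193, edgeR adjusted p 0.702), and -0.017 with the cortical score in the model.

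**Figure D2:**
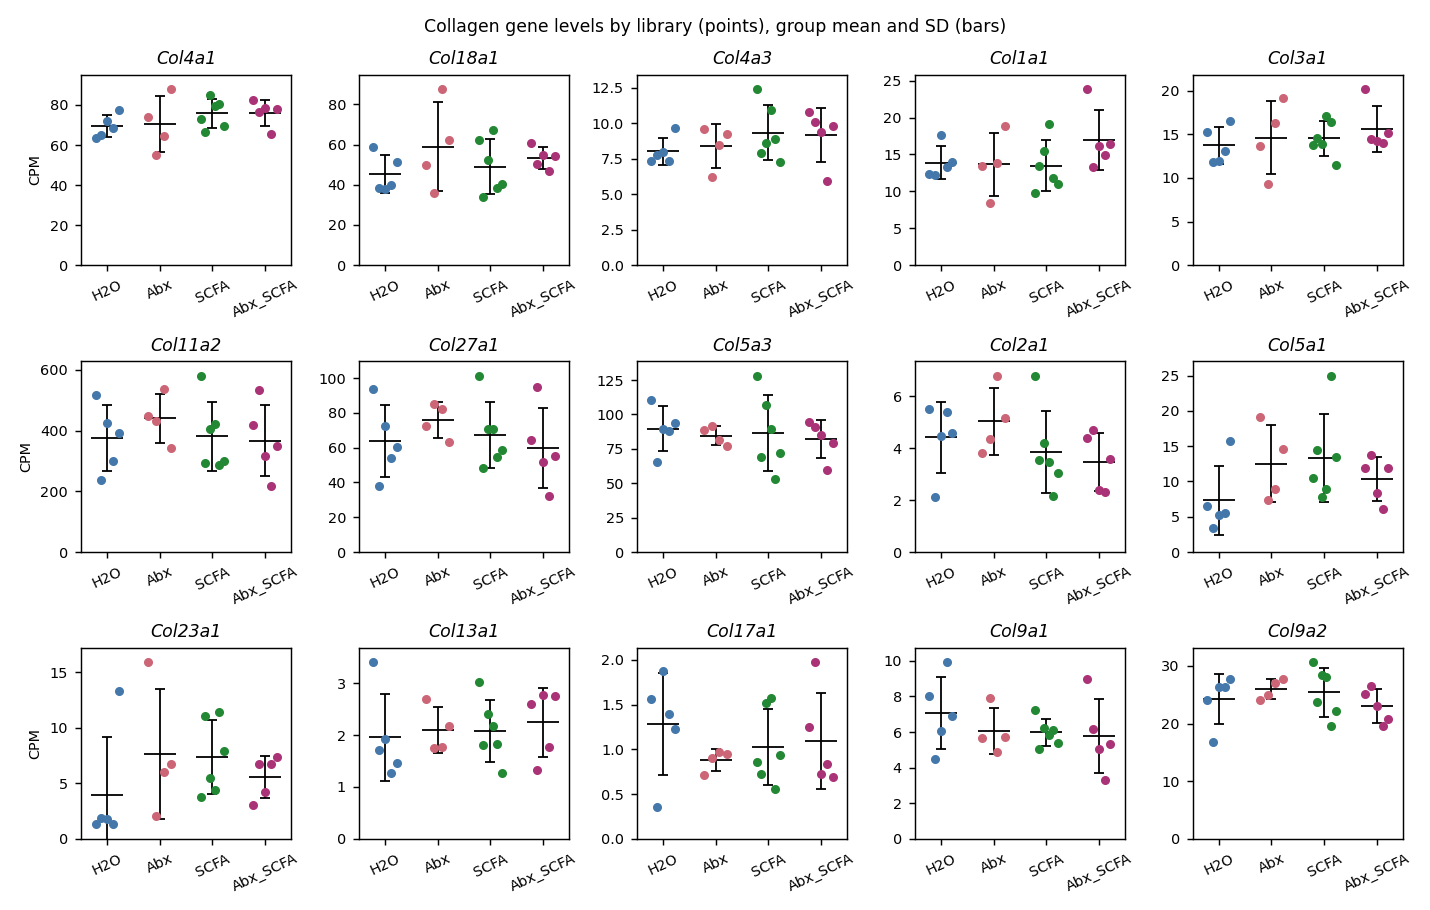
CPM of 15 collagen genes in each library (points) by drinking group, with the group mean and SD (bars, cut at 0 where they reach below it). The groups overlap for every gene, H2O replicate 5 stands at 13.3 CPM for Col23a1, and Col4a1 keeps within 55.1 to 88.2 CPM.

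Among the other chains, the type IX genes, whose products coat cartilage fibrils, had the smallest p on the lower side of several comparisons. Col9a1 was at 8.0, 4.48, 6.06, 9.91 and 6.90 CPM in the H2O libraries, 5.69, 7.90, 4.90 and 5.71 in Abx, from 5.04 over a median of 5.99 to 7.23 in SCFA, and 9.00, 6.19, 5.07, 3.33 and 5.32 in Abx_SCFA. All SCFA libraries lay inside the H2O range. Its log2 fold change against H2O was -0.24 ± 0.21 (SE) in SCFA and -0.29 ± 0.22 in Abx_SCFA (edgeR adjusted p 0.656 and 0.824). These became -0.090 and -0.14 without H2O replicate 4, and the SCFA value was 0.034 with the cortical score in the model. The Abx_SCFA value was -0.51 without Abx_SCFA replicate 1, -0.15 without replicate 4, and -0.082 with the cortical score. Without H2O replicate 2 the SCFA value was -0.37.

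Col9a2 was at 24.1, 16.7, 26.3, 26.3 and 27.8 CPM in the H2O libraries, 24.0, 24.9, 26.9 and 27.7 in Abx, from 19.5 over a median of 25.9 to 30.6 in SCFA, and 25.1, 26.6, 23, 19.6 and 20.8 in Abx_SCFA. The difference of Abx_SCFA from SCFA was -0.14 ± 0.13 (SE, edgeR adjusted p 0.827), with all Abx_SCFA libraries inside the SCFA range. It was -0.24 without SCFA replicates 2 and 5, -0.076 without SCFA replicate 1 and -0.089 without Abx_SCFA replicate 4. Col6a2, a chain of the beaded filaments of type VI, was the narrowest member at 10.4 to 15 CPM, a 1.45-fold range. Another type VI chain, Col6a4, ranged over 0.157 to 0.950 CPM (3 to 24 counts) and had a log2 fold change of 0.77 ± 0.42 (SE) in SCFA (edgeR adjusted p 0.429), and Rpl29, which overlaps it in GRCr8, is an abundant ribosomal gene whose reads may be among them. Col7a1, the anchoring fibril of skin, ranged over 6.5 to 19.0 CPM. The fibril-associated chains Col14a1 and Col16a1 ranged over 1.85 to 4.96 and 44.0 to 133 CPM.

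Genes that make, bind, cut or lie beside collagen were read from the same fit, and 0 were called in any contrast. Of 28 synthesis and crosslinking genes tested, 3 were higher and 1 lower at an unadjusted p below 0.05 in Abx (background 3.26% and 5.53%), 5 higher and 0 lower in SCFA (8.2% and 5.58%) and 1 higher and 0 lower in Abx_SCFA (2.09% and 3.46%). Medians were -0.00076, 0.096 and 0.037. The smallest p belonged to Fkbp10, a chaperone gene for collagen folding, in SCFA: CPM was 8.81 to 12 in H2O and 12.6 to 15.5 in SCFA, without overlap, and the log2 fold change was 0.38 ± 0.091 (SE, edgeR adjusted p 0.247). In Abx_SCFA it was 0.22 ± 0.094 (0.815). P4ha3, a prolyl hydroxylase that stabilizes the helix, was at 1.41 ± 0.690 CPM (SD, n = 5) in H2O, 3.46 ± 2.10 (n = 4) in Abx, 4.42 ± 2.99 (n = 6) in SCFA and 2.62 ± 0.429 (n = 5) in Abx_SCFA. Its log2 fold changes were 1.30 ± 0.47, 1.64 ± 0.44 and 0.88 ± 0.46 (SE), none called. Adamts2, which trims the ends of procollagen, was 1.72 ± 0.70 in Abx.

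Of 10 collagen receptor genes tested, 3 were higher and 2 lower at an unadjusted p below 0.05 in Abx (background 3.26% and 5.53%), 2 higher and 0 lower in SCFA (8.2% and 5.58%) and 0 in Abx_SCFA (5.56% in either direction). Ptprs, a receptor phosphatase of neurons that binds matrix sugars, had log2 fold changes of 0.33 ± 0.090 (SE), 0.21 ± 0.082 and 0.16 ± 0.085 in Abx, SCFA and Abx_SCFA. The collagen-binding integrin Itga10 was 0.74 ± 0.24 in Abx, and Itga11 was 0.68 ± 0.30 in Abx and 0.49 ± 0.28 in Abx_SCFA. The 2 lower in Abx were Ddr1 (-0.48 ± 0.20) and Itgb1 (-0.18 ± 0.077). Ddr2, a receptor kinase for fibrillar collagen, was at 3.94 ± 1.59 CPM (SD, n = 5) in H2O and 7.49 ± 3.31 (n = 6) in SCFA, a log2 fold change of 0.92 ± 0.28 (SE, edgeR adjusted p 0.247). Of 10 degradation genes tested, Mmp14, a membrane collagenase, was -0.29 ± 0.14 in Abx. Timp1 and Timp4, inhibitors of such enzymes, were 0.51 ± 0.19 and -0.47 ± 0.15 in SCFA, the only ones of the list at an unadjusted p below 0.05 there, and 0.27 ± 0.20 and -0.18 ± 0.16 in Abx_SCFA. Timp1 was 0.36 ± 0.21 in Abx. Among basement membrane partners, 0 of 11 tested were called. Fn1, fibronectin, was 0.21 ± 0.098 in SCFA and 0.24 ± 0.10 in Abx_SCFA, and Nid2, a linker of laminin and type IV collagen, was -0.37 ± 0.18 in Abx. In the interaction, 4 synthesis, 2 receptor and 1 degradation genes were negative at an unadjusted p below 0.05 (background 5.01%) and 1 degradation gene positive (2.83%). In each of the 3 comparisons with H2O, all 11 cortical genes tested also had a positive log2 fold change (medians 1.82 in Abx, 2.61 in SCFA and 1.46 in Abx_SCFA), and their part in the values of these lists was not tested. All 10 myelin genes tested had a negative log2 fold change in Abx (median -0.69, 9 at an unadjusted p below 0.05, 0 called by edgeR), with a summed CPM of 6788 to 14248 in Abx and 15115 to 22816 in H2O, without overlap. They were negative in SCFA (median -0.18) and Abx_SCFA (-0.44) too, with 0 at that level. In Abx, 8 of 8 astrocyte, 12 of 14 endothelial and 7 of 8 microglia genes were also negative. Of these, 2, 1 and 0 were at an unadjusted p below 0.05 (edgeR, background 5.53% lower). Of 11 interneuron genes tested, 9 were positive in Abx. The part of these lists in the collagen, receptor and degradation values was not tested.

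Some collagen genes varied across libraries with genes that mark cell types. Each member's log2 CPM was related to the mean log2 CPM (score) of 10 marker lists that hold no collagen, which gave 250 relations. Of these, 14 passed an adjusted permutation p of 0.05, 13 positive and 1 negative, all 14 by Spearman's rho too and 11 also after centring on group means. The smallest r to pass, leaving out its sign, was 0.65, and the share of all 12846 genes that reached it in either direction is given as the background. For the mural list (smooth muscle cells and pericytes) 2 of 25 members reached it (8.0%, background 0.638%), for the endothelial list 3 (12%, 1.84%) and for the fibroblast and meninges list 3 (12%, 1.39%). For the cortical list 3 did (12%, 11.8%), for the medium spiny neuron list 1 (4.0%, 11.9%), the interneuron list 1 (4.0%, 8.09%) and the microglia list 1 (4.0%, 3.67%), and for the myelin, astrocyte and choroid plexus lists 0 (8.68%, 6.9% and 0.662%). The members' shares were above the background for the mural, endothelial and fibroblast lists and near it for the cortical list, and these differences in share were not tested.

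Col4a1 followed genes of vessel cells. With the mural score r was 0.81 (rho 0.84, permutation p 3e-05 and 2e-05, adjusted p 0.0025 for both, r 0.80 without the 2 libraries farthest from the median score). With the endothelial score r was 0.72 (rho 0.68, p 0.00031 and 0.00125, adjusted 0.0129 and 0.0246, 0.64 without 2 libraries) and with the fibroblast score 0.73 (rho 0.74, p 0.00027 and 0.00034, adjusted 0.0129 and 0.0121, 0.72 without 2). Col4a3 had an r of 0.67 with the endothelial score (rho 0.74, permutation p 0.0013 and 0.00031, adjusted 0.0252 and 0.0121, 0.59 without 2). No relation of the other vascular chains, Col4a4, Col8a1, Col15a1 and Col18a1, passed, so that of the chains called vascular only Col4a1 and Col4a3 passed with a vessel list. Within the 4-hundred series (11 libraries) r of Col4a1 with the mural score was 0.69 and within the others (9 libraries) 0.83. Without Abx replicate 2, which was low in Col4a1 and in both vessel scores, the mural relation was the only one of these Col4a1 and Col4a3 relations to pass, and 7 of 250 relations passed in all. The endothelial relation of Col4a3 also did not pass without SCFA replicate 4 (adjusted permutation p 0.0655) or replicate 6 (0.052), or without SCFA replicates 2 and 5 (0.0617), while the mural relation of Col4a1 passed with each of the 20 libraries left out in turn (r 0.76 to 0.84).

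Col3a1 followed the fibroblast and meninges score with an r of 0.83 (rho 0.81, permutation p 1e-05, the smallest the resamples can give, and 4e-05, adjusted 0.00125 and 0.00312, 0.83 without the 2 farthest libraries, 0.81 and 0.94 within the number series). Col1a1 had an r of 0.72 with that score (rho 0.65, permutation p 0.00036 and 0.00238, adjusted 0.0129 and 0.036, 0.62 without 2) and of 0.70 with the mural score (rho 0.72, p 0.00046 and 0.00055, adjusted 0.0144 and 0.0156, 0.65 without 2). Neither Col1a1 relation passed without Abx replicate 2 (adjusted permutation p 0.078 and 0.0845), nor the first without Abx_SCFA replicate 1 (0.0586), while that of Col3a1 passed with each library left out. The fibroblast list includes the small matrix protein gene Dcn, at 6.67 to 10.7 CPM over all libraries, and the gene with the highest CPM in it, Pdgfra, is also made by oligodendrocyte precursors. Col6a2 had an r of 0.65 with the endothelial score (rho 0.67, permutation p 0.00195 and 0.00145, adjusted 0.0348 and 0.0253), which did not pass after centring on group means (0.63) or with any of 10 of the 20 libraries left out, and Col16a1 an r of 0.69 with the microglia score (rho 0.72, p 0.00073 and 0.00056, adjusted 0.0166 and 0.0156). Without the 2 farthest libraries these were 0.62 and 0.70. The Col16a1 relation passed with each library left out, but not without SCFA replicates 2 and 5 together (adjusted permutation p 0.0611).

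Col23a1 and Col5a1 followed the cortical excitatory neuron score. For Col23a1 r was 0.90 (rho 0.94, permutation p 1e-05 for both, the smallest the resamples can give, adjusted 0.00125 and 0.0025), 0.88 without the 2 farthest libraries, 0.86 after centring on group means, and 0.92 and 0.90 within the 4-hundred and the other number series. For Col5a1 r was 0.78 with the cortical score (rho 0.82, permutation p 1e-04 and 5e-05, adjusted 0.00625 and 0.00312, 0.77 without 2), 0.70 with the interneuron score (rho 0.67, p 0.00063 and 0.00152, adjusted 0.0157 and 0.0253, 0.55 without 2) and -0.68 with the medium spiny neuron score (rho -0.74, p 0.0006 and 0.00031, adjusted 0.0157 and 0.0121, -0.65 without 2). The last 2 relations did not pass without SCFA replicate 5 (adjusted permutation p 0.11 and 0.136), and the interneuron relation did not after centring. The cortical relations of Col23a1 and Col5a1 passed with each library left out. Col6a4 had an r of 0.67 with the cortical score (rho 0.64, permutation p 0.00131 and 0.00314, adjusted 0.0252 and 0.0436), 0.60 after centring on group means, where it did not pass, and 0.48 without H2O replicates 1 and 3, so that it rests on those. It also did not pass without SCFA replicate 5 (0.133) or Abx replicate 2 (0.0597). The other transmembrane chains, Col13a1 and Col17a1, were related to no list, so that Col23a1 was the only transmembrane chain whose relation to a neuron list passed.

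**Figure D3:**
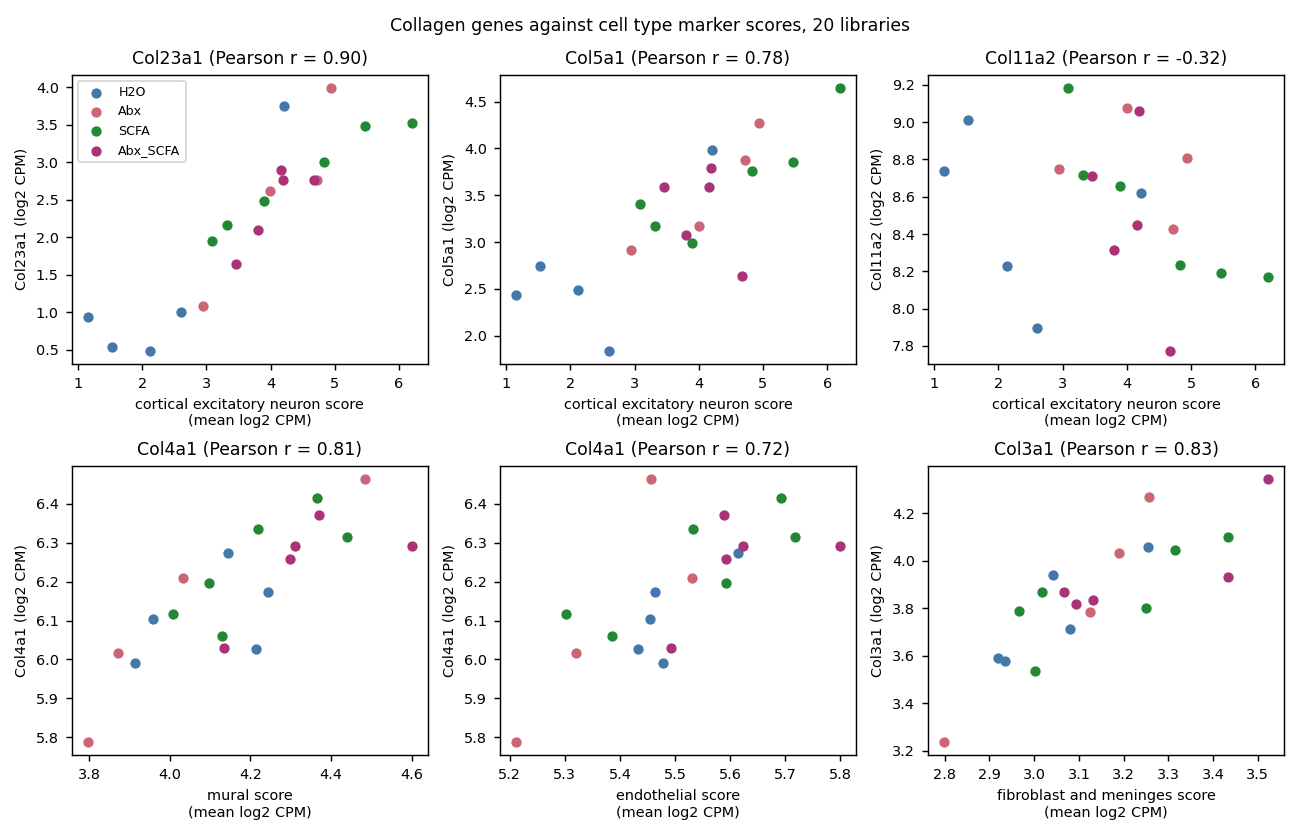
Log2 CPM of 5 collagen genes against the mean log2 CPM of a marker list in the 20 libraries (points, coloured by group), with Pearson's r. Col23a1 and Col5a1 rise with the cortical score (r 0.90 and 0.78), Col11a2 does not (r -0.32), Col4a1 rises with the mural and endothelial scores, and Col3a1 with the fibroblast score.

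Members also varied with each other. Of 300 pairs, a comparison added after the data were seen, 56 passed an adjusted permutation p of 0.05, all with a positive r, and 54 of these also passed after centring on group means. All members but Col13a1 were in at least 1 such pair. Col11a2 was related to 8 others: Col27a1 (r 0.96), Col7a1 (0.92), Col5a3 (0.80), Col16a1 (0.80), Col2a1 (0.79), Col9a2 (0.74), Col11a1 (0.71) and Col5a2 (0.60). These 8 are 33.3% of the other members, while 6.91% of all other genes were as closely related to Col11a2 in the positive direction. Shares for Col27a1 were 37.5% and 6.31%, for Col4a1 20.8% and 2.0%, and for Col23a1 8.33% and 8.4%.

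The pair of Col11a2 and Col27a1 kept an r of 0.93 without the 2 libraries farthest from the median of Col11a2 (rho 0.96, permutation p 1e-05 for both, adjusted 0.000429 and 0.0006), and 0.96 and 0.95 within the 4-hundred and the other series. Col11a2 itself was related to no marker list, with r from -0.32 for the cortical to 0.45 for the microglia score. Col11a1 and Col5a2, which can share type V and XI molecules, had an r of 0.87 (rho 0.85, permutation p 1e-05, adjusted 0.000429 and 0.0006, 0.87 without 2). Col23a1 and Col5a1 had an r of 0.81 (rho 0.86, permutation p 1e-05 and 2e-05, adjusted 0.000429 and 0.001, 0.80 without 2). Col4a1 was related to Col4a3 with an r of 0.70 (rho 0.67, permutation p 0.00063 and 0.00165, adjusted 0.00727 and 0.0198, 0.66 without 2), and Col1a1 to Col3a1 with an r of 0.70 (permutation p 0.0008, adjusted 0.00857) that did not pass by rho (0.56, adjusted 0.0607) and was 0.41 without 2 libraries, so that it rests on those. The partner chains Col9a1 and Col9a2 had an r of 0.51 (rho 0.48, adjusted permutation p 0.0877 and 0.121, 0.43 without 2). Without H2O replicate 2, 35 of the 300 pairs passed.

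**Figure D4:**
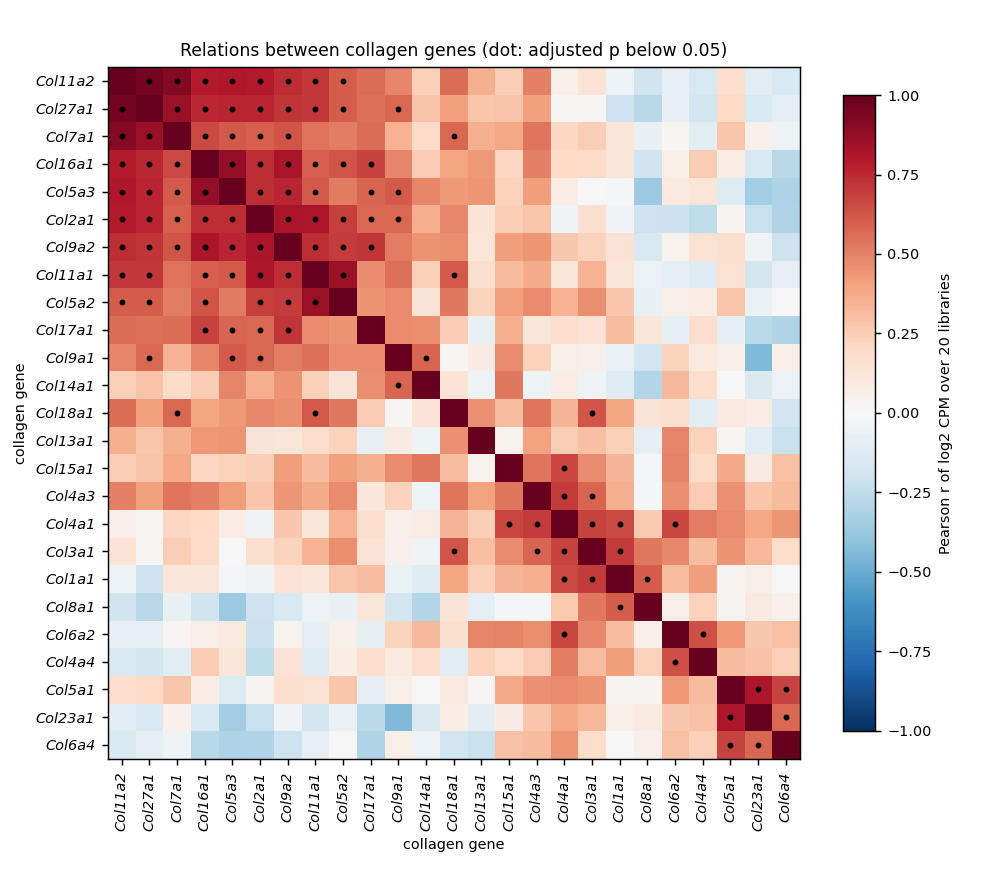
Pearson's r of log2 CPM over the 20 libraries for each pair of the 25 collagen genes (colour), with a dot where the adjusted permutation p is below 0.05. Col11a2 has a dot with 8 others, and Col23a1, Col5a1 and Col6a4 have dots only with each other.

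Promoter windows were found for 20 of the 25 members, matched by symbol in the RefSeq table (GRCr8). In the 250 bases before the start, the median GC content was 62% for these members and 52% for all 27457 windows, and the median number of CpG pairs 11 and 6. The GC box GGGCGG, searched on both strands, was present in 12 of 20 members against 32.4% of all windows, the CCAAT box CCAAT in 5 against 34.3%, and the TATA box TATAAA in 2, Col13a1 and Col17a1, against 13.1%. These letter matches describe the windows and are not evidence of binding.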

How the data were processed

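The authors deposited 1 table of whole-number counts per gene symbol for 20 libraries, with totals that differ between libraries. Per the labels' protocols, RNA was isolated by column and copied with a SMARTer cDNA kit, from polyA RNA. Per the submitters' processing notes, the genome build was Rnor_6.0 and the tools include STAR 2.4.0, FastQC 0.11.6 and limma. How reads were counted, on which annotation and with which strand setting is not given in the sources used here, so that reads of overlapping genes cannot be assigned with certainty. Members, lists and types were chosen with earlier results of these data known.

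Counts were tested with edgeR 4.0.16 (R 4.3.3) by the robust quasi-likelihood F test with TMM scaling, in 1 model of the 4 groups over 20 libraries (16 residual degrees of freedom). The filterByExpr rule (minimum 10, total 15) passed all 25 members, and p-values were adjusted by Benjamini-Hochberg over 12846 genes. SE came from the F statistic and intervals are at 95%. Log2 CPM used a prior count of 2. Relations across libraries used 100000 permutations of the libraries, two-sided, with adjustment over the 250 or 300 relations. DESeq2 1.42.0, limma-voom (limma 3.58.1), RLE scaling, no filter, other models and leaving out libraries were alternatives. The code was tested on simulated data.

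Every member is named with its range. Values in each library, for SCFA only the lowest, median and highest, are given for members with the smallest p per contrast and direction. They are also given for those at an unadjusted p below 0.05, and the 3 with the highest mean CPM per vascular, fibrillar and transmembrane type. Of each pathway list, the 2 genes with the smallest p against H2O are named, and of the receptors also all at an unadjusted p below 0.05 in Abx. A result that this rule would name among the basement membrane partners is not reported here. The smallest chi-square per gene between any 2 of the libraries (190 pairs) was 6.77, so that no 2 of them looked like repeat counts of 1 library. Each was taken as 1 replicate, although this check cannot show that rats sharing a cage were independent.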

Additional observations from a re-analysis of the deposited data

Results flagged for a closer look

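In 7 of 100 sets of 1 collagen gene in 1 group, a single library lay apart from the rest by more than Dixon's limit on log2 CPM, and chance gives about 1 in 20. Col23a1 was at 13.3 CPM in H2O replicate 5 against 1.31 to 1.91 in the other H2O libraries. In H2O replicate 2, Col17a1 was at 0.352 CPM (7 counts) against 1.23 to 1.87, Col2a1 at 2.11 against 4.46 to 5.49, and Col9a2 at 16.7 against 24.1 to 27.8. Over all 20 libraries, H2O replicate 2 was also the lowest for Col5a1, Col5a2, Col7a1 and Col16a1. Col8a1 was at 0.315 CPM (7 counts) in H2O replicate 4 against 0.554 to 0.661. Col3a1 was at 20.2 CPM in Abx_SCFA replicate 1 against 14.0 to 15.2, and Col4a3 at 5.92 CPM in Abx_SCFA replicate 4 against 9.37 to 10.8.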

How the results depend on the processing

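The count of called collagen genes was 0 in every contrast fitted under every alternative run. The number series as a term was fitted for Abx against H2O only, and fits of only the groups compared have no interaction. Over all genes and with all libraries, edgeR and limma-voom called 0 in each contrast. DESeq2 called 1 in Abx, 10 in SCFA and 1 in Abx_SCFA against H2O, 3 between Abx_SCFA and SCFA, and 0 in the other contrasts, none a collagen gene. Without H2O replicate 4, edgeR called 2 genes in SCFA against H2O and 2 in Abx_SCFA against SCFA. Without Abx_SCFA replicate 5 it called 1 in each of these contrasts. For edgeR with all libraries the counts at an unadjusted p below 0.05 were 1129, 1770, 714, 410, 871 and 1008, in the order of the 6 contrasts. Throughout, the median log2 fold changes of all members and of the vascular, fibrillar and transmembrane chains moved by less than the spread between libraries. That spread, the SD within groups of the mean log2 CPM, was 0.22 for all members and 0.25, 0.28 and 0.34 for these types. In the main fit, every median against H2O was smaller than its spread, so that the limit is wide. With 1 library left out, the fibrillar median reached 0.34 in Abx, above its spread. The transmembrane median then reached 0.41 in Abx and 0.39 in SCFA, also above its spread. With the cortical score in the model the fibrillar median was 0.50 in Abx and 0.33 in SCFA (0.23 and 0.049 without). It was -0.57 in the interaction (-0.31 without), and the transmembrane median in Abx was -0.017 (0.11 without). With the cortical score as a covariate, Col5a1 changed sign in SCFA against H2O (-0.064) and so did Col9a1 (0.034). With that covariate, 6 of 25 members (24%) were at an unadjusted p below 0.05 in Abx against H2O, where 0 were without it, against 8.49% of all genes. Most of these members varied together across libraries, and the difference in share was not tested. The cortical score itself was higher on average in Abx than in H2O. Of the 250 relations to marker scores, 14 passed with all libraries, 8 without SCFA replicates 2 and 5, and 7 to 18 with 1 library left out, the lowest without Abx replicate 2. Of pairs of members, 35 to 61 passed with 1 library left out, against 56 with all, the lowest without H2O replicate 2. The cause was not tested. No paired analysis was possible because the replicate numbers follow accession order and pair no libraries. With 4 to 6 rats a group, Col23a1 and Col8a1 had intervals more than 2 log2 units wide in each comparison with H2O, while those of Col4a1 and Col6a2 were under 0.5 wide.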

Other observations

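The genes whose log2 CPM was most like a member's over the 20 libraries were looked up for 3 members, chosen after the relations were seen, and are given as a description with no test. For Col11a2 they were Mpnd (r 0.97), Lime1 (0.97), Lrrc45 (0.96), Rps6kb2 (0.96) and P3h3 (0.96), the last a relative of the prolyl hydroxylases that modify collagen, and on the negative side Arl6ip1 (-0.89), Cdc42 (-0.88) and Rab7a (-0.88). For Col23a1 they were the transcription factor gene Nr4a2 (0.96), the netrin relative Ntng2 (0.94), Necab3 (0.94) and Ptpru (0.93), and on the negative side Wfs1 (-0.90). For Col4a1 they were the endothelial nitric oxide synthase gene Nos3 (0.87), the endothelial receptor gene Acvrl1 (0.87), Tns1 (0.86), the smooth muscle kinase gene Mylk (0.85) and the laminin chain gene Lama5 (0.83), a basement membrane partner.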
